A study of Rattus norvegicus with 11 samples.

Results

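Tifa and the adaptors that carry Toll-like receptor signals were followed in white blood cells (WBCs) of rats with collagen-induced arthritis (CIA). The list held 9 gene symbols, Tifa, Traf6, Irak1, Irak3, Irak4, Myd88, Ticam1, Cd14 and Ly96, and was matched by symbol to a table of 32623 genes. 7 of the 9 were found, and Ticam1 and Ly96 were not analysed here. Tifa was chosen by its FPKM in this series, which was lower under Nampt+ than under Nampt++ status, so that contrast is described for the members with no p-value, and what is called in it restates that choice.

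The animals were male Wistar rats, 7 weeks old at the start. CIA was induced in 4 rats by injecting the hind left paw with bovine type II collagen emulsified in incomplete Freund's adjuvant, followed by a boost on day 7. Each of these 4 rats gave 1 sample called Nampt++, taken around day 8, and 1 called Nampt+, taken around day 14, with the status assigned by the authors from PCR of Nampt, the gene for the enzyme that makes the precursor of NAD. The 3 Normal samples came from healthy rats with no CIA. Nampt status and time since immunization cannot be told apart, since each status was sampled at its own time. All samples were circulating leukocytes of peripheral blood after lysis of the red cells, although the extraction protocol in the labels speaks of retina. 9 of 10 retina markers stayed under 1 FPKM in every sample and the 10 together summed to between 0.371 and 1.96 FPKM (fragments per kilobase of transcript scaled to library size, a level per transcript length).

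Toll-like receptors sense microbial products, and most of them, like the interleukin-1 receptors, recruit the adaptor Myd88 to their intracellular domain. Myd88 gathers the kinases Irak4 and Irak1, and the signal passes to the ubiquitin ligase Traf6, which switches on the NF-kappa B and MAP kinase pathways. Irak3 acts as a brake on this chain, Cd14 hands lipopolysaccharide to the receptor Tlr4, and Tifa clusters Traf6 when the kinase Alpk1 has sensed bacterial sugars of the lipopolysaccharide pathway.

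The RefSeq promoter windows of GRCr8 are shown first for the members that the results turn on. A window runs from 250 bases before to 50 bases after the annotated start, and 6 of the 9 members have one in the table used. Capitals mark letters that match a searched motif. Tifa and Irak3 are shown because they alone among these 6 windows hold an NF-kappa B match, and Myd88 because 1 library described below decides its group mean. Tifa lies at chr2:218932636-218932935 on the plus strand, Irak3 at chr7:57598582-57598881 on the minus strand and Myd88 at chr8:127956181-127956480 on the minus strand, each given 5′ to 3′.
Tifa: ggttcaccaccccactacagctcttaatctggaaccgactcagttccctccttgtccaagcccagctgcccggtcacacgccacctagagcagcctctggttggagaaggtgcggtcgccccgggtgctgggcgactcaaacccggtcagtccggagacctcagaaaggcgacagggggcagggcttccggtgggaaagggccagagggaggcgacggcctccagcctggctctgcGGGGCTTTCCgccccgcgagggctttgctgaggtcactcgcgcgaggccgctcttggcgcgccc
Irak3: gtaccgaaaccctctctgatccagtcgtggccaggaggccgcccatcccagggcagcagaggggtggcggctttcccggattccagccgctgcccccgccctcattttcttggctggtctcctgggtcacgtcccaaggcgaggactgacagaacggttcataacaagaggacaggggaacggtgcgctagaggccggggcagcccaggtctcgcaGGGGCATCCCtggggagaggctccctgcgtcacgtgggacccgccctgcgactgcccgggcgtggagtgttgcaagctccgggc
Myd88: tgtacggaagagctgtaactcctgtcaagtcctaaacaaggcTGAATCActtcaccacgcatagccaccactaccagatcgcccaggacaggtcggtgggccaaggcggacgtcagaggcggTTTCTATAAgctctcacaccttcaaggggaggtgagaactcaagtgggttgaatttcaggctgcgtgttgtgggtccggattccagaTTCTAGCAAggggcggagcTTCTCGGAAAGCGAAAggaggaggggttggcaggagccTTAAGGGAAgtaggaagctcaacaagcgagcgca

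The NF-kappa B letters sit 14 to 5 bases before the start of Tifa and 34 to 25 bases before that of Irak3. NF-kappa B motifs, searched by name on both strands, occur in 7.51% of 33469 promoter windows of this length. Myd88 carries TGANTCA, the AP-1 motif, 208 to 202 bases before its start, which 7.33% of all windows hold. It also carries the interferon-stimulated response element (ISRE), searched by name, 16 to 7 bases before the start, found in 3.92% of windows. The C/EBP letters TTNCNNNAA occur 4 times in the Myd88 window, 1 of them overlapping the ISRE match, and 2 times in that of Cd14, beside a share of 38.2% of all windows. Neither the CRE motif TGACGTCA (1.83% of windows) nor the PU.1 motif GAGGAAGT (2.42%) occurred in the 6 windows. GC content was 67.3% in both the Tifa and the Irak3 window, 55.0% in that of Myd88 and 48.3% in that of Cd14, against a median of 51.7%. The matches are a description of letters, and binding was not measured.

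The 11 libraries held between 65340027 and 85819418 deposited gene counts, with haemoglobin genes taking 6.84% to 42.8% of them. 1 library stood apart by its cell markers. In the Nampt++ sample of rat 1, the 10 neutrophil markers summed to 41232 FPKM, against 2308 to 15763 FPKM in the other 10 samples, and 7 of the 10 were highest there. Most of that sum was S100a9 (25720 FPKM) and S100a8 (12480 FPKM). Of the remaining markers, Fcgr3a was at its lowest there (3.63 FPKM), and Camp and Ngp were highest in the Nampt+ sample of rat 2. Member values that rest on the Nampt++ library of rat 1 are given with and without it. In bulk samples such as these, fewer cells of a type and less RNA per cell cannot be told apart.

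By median FPKM over the 11 samples, Cd14 came first with 78.9 FPKM, and Irak4 last with 3.63 FPKM. Myd88 followed Cd14 with 71.4 FPKM, and Cd14 exceeded it in 7 of 11 samples. Irak1 had a median of 32.0 FPKM, below Myd88 in 10 of 11 samples. Irak3 (25.2 FPKM) and Traf6 (23.5 FPKM) were neighbours whose order held in 8 of 11 samples, and Irak1 exceeded Irak3 in 7 of 11. Tifa stood at 10.9 FPKM, below Traf6 in 8 of 11 samples, and above Irak4 in 11 of 11. Only the step from Tifa to Irak4 was thus kept in every sample.

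**Figure D1:**
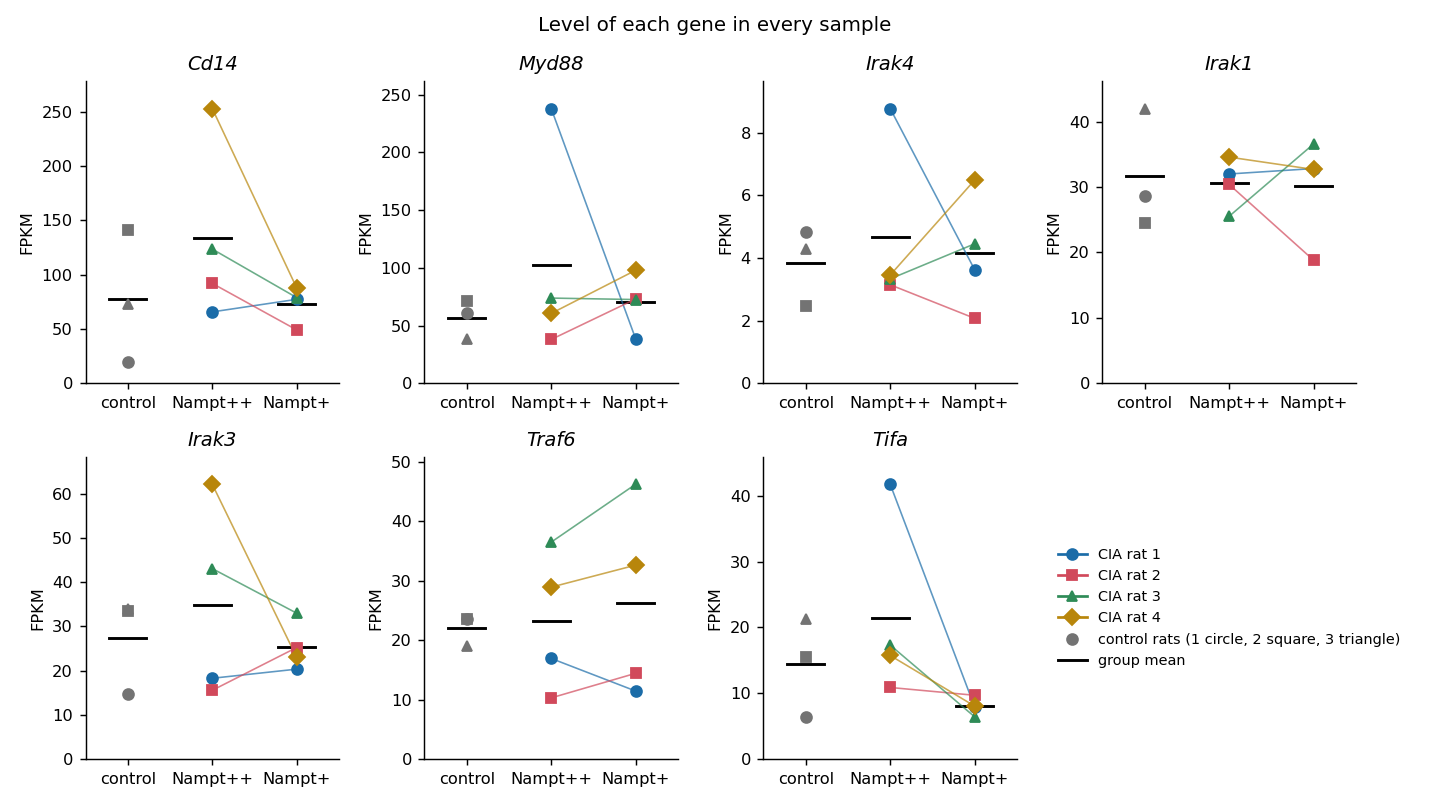
FPKM (linear axis from 0) of the 7 genes in each of the 11 samples, with lines joining the Nampt++ and Nampt+ samples of 1 CIA rat and black bars at group means. The 4 Nampt+ samples of Tifa lie between 6.40 and 9.68 FPKM, below the 4 Nampt++ samples, and Myd88 reaches 238 FPKM in 1 library.

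Tifa (ENSRNOG00000010941, chromosome 2 from 232104809 to 232137422, plus strand) was the member whose CIA groups lay apart, which is how it was chosen. At Nampt++ rats 1 to 4 measured 41.8, 10.9, 17.3 and 15.7 FPKM. At Nampt+ the same rats measured 7.91, 9.68, 6.40 and 8.03 FPKM. The group means were 21.4 ± 13.9 FPKM (SD, n = 4) and 8.01 ± 1.34 FPKM (SD, n = 4), a ratio of 0.374, and the highest Nampt+ sample remained under the lowest Nampt++ sample in FPKM. In FPKM the spread narrowed too, from 64.6% of the mean under Nampt++ to 16.8% under Nampt+. The 3 controls measured 6.42, 15.5 and 21.3 FPKM, a range that held 3 of the 4 Nampt++ samples and 3 of the 4 Nampt+ samples.

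Within each rat, the log2(FPKM + 1) of Tifa was lower at Nampt+ in 4 of 4 rats, by -2.26, -0.15, -1.31 and -0.89 in rats 1 to 4. Across all genes tested, 4.94% were lower in all 4 rats. The fall in rat 2 was small beside the other 3, and the median of 11219 tested genes moved by -0.46 in that rat and by 0.26 in rat 3 on the same scale. With counts scaled by TMM, a scaling that holds most genes level between libraries, the medians were 0.00 and 0.00 and the difference of Tifa in rat 2 became 0.42 on log2(CPM + 1). Tifa was then lower in 3 of 4 rats, with -2.30, -1.66 and -0.91 in rats 1, 3 and 4. The groups also overlapped on that scale, since the Nampt+ sample of rat 2, at 38.5 CPM, exceeded the Nampt++ samples of rats 2 and 4, at 28.5 and 30.6 CPM. Relative to its level the spread did not clearly narrow there, with 28.5 to 88.0 CPM under Nampt++ and 12.3 to 38.5 CPM under Nampt+. Haemoglobin genes took 37.3% and 42.8% of the counts in the 2 libraries of rat 2, the highest pair of the 4 rats, and the part of this share in the difference was not tested.

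In the edgeR fit of deposited counts, Tifa had a log2 fold change of -1.17 ± 0.46 (SE) from Nampt++ to Nampt+. It was 1 of 7 members called, by a ratio of group mean FPKM over 2 or under 0.5 with an unadjusted p under 0.05, where 0.642% of all genes were called. It was also the 1 of 7 whose FPKM groups did not overlap, where 0.41% of all genes did not. These counts describe the choice of Tifa and nothing further is read from them. With the rat as a block the log2 fold change was -1.17 and Tifa was no longer called. Without the Nampt++ library of rat 1 it was -0.67 and the call was lost as well.

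**Figure D2:**
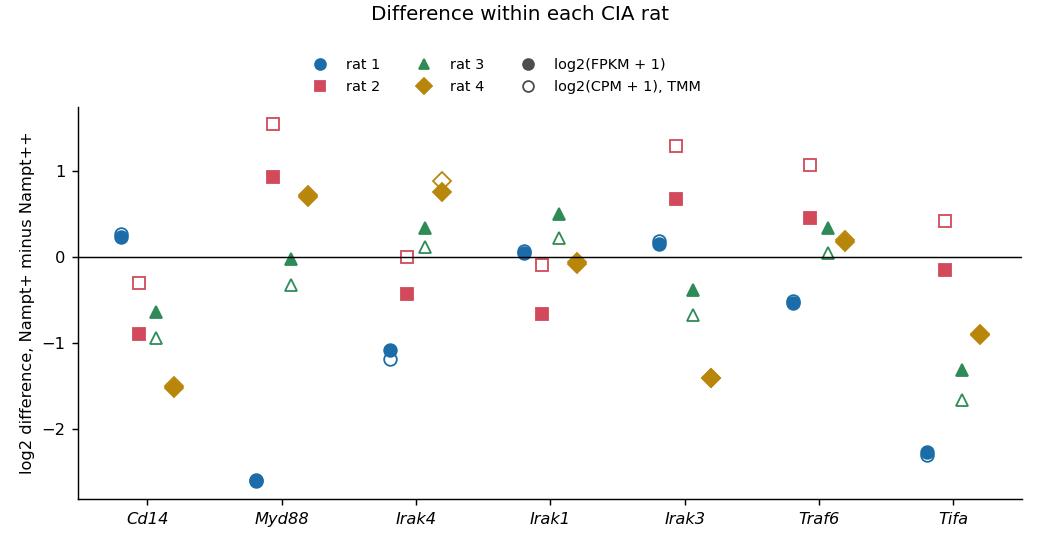
Difference of Nampt+ minus Nampt++ within each CIA rat, on log2(FPKM + 1) as filled symbols and on TMM-scaled log2(CPM + 1) as open symbols. Tifa is below 0 in 4 of 4 rats on the first scale and in 3 of 4 on the second, and Myd88 ranges from -2.60 to 0.93 on the first.

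Against controls, Tifa had a log2 fold change of 0.52 ± 0.51 (SE) under Nampt++ and -0.66 ± 0.49 (SE) under Nampt+, with edgeR adjusted p-values of 0.9999 and 1.0. Neither difference exceeded the spread between samples. Without the Nampt++ library of rat 1 the first became 0.02. Both comparisons share their 3 controls, and their CIA samples are those that led to the choice of Tifa.

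Alpk1, the kinase upstream of Tifa, is a neighbour whose annotated span overlaps that of Tifa by 12326 bases on the opposite strand. Its level was 7.27 FPKM in the Nampt++ sample of rat 1 and between 0.410 and 1.28 FPKM in the other 10 samples. Its counts came to between 8.48% and 65.7% of those of Tifa, the highest share again in that library. At Nampt+ the share was 26.3%, 41.1%, 34.6% and 60.4% in rats 1 to 4, against 14.3%, 23.8% and 14.2% at Nampt++ in rats 2 to 4. Whether the counting used strand is not given in the sources used here, so reads in the shared stretch may belong to either gene. The Tifa value of every library, Nampt+ ones included, is uncertain to this extent.

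The genes whose log2(FPKM + 1) followed that of Tifa most closely over the 11 samples (7 rats, 8 of the samples in pairs) were drawn from 4929 genes with a mean of at least 10 FPKM. RGD1311745 came first, with a Pearson r of 0.92. Lamtor3, a subunit of the Ragulator complex that anchors mTORC1 and MAP kinase signalling to lysosomes, had an r of 0.91 and kept 0.89 without the 2 samples farthest from the median of Tifa. Fam241a, at chromosome 2 from 232214331 to 232245319 and so downstream of Tifa, had an r of 0.86, which became 0.61 without those 2 samples. Yipf4 and Oaz1, the latter an inhibitor of polyamine synthesis, both had 0.84. None of the other 6 members was among them, though Irak4, with a mean of 4.26 FPKM, fell below the limit and could not be. The r of Tifa with Traf6, its partner, was -0.13.

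Traf6 (ENSRNOG00000004639, chromosome 3 from 91252829 to 91271607) differed more between rats than between times in FPKM. Its Nampt++ samples measured 16.9, 10.3, 36.5 and 28.9 FPKM in rats 1 to 4, and its Nampt+ samples 11.4, 14.4, 46.3 and 32.6 FPKM. Rats 1 and 2 were low and rats 3 and 4 high on both occasions. On TMM-scaled CPM rats 3 and 4 were again the higher pair at each time, while rat 2 went from 32.8 to 69.7 CPM. On log2(FPKM + 1) the rat means of Traf6 spanned 1.67, and its largest change within a rat was 0.53. The rat means had an SD of 0.82, against a median change of 0.39 within a rat. Irak3 had 0.53 against 0.52, and in the other 5 members the change within a rat was the larger. An SD of means and a difference of 2 samples are unlike measures, so their order is a description and not a test. The 3 controls measured 23.6, 23.5 and 19.0 FPKM, between the low and the high pair. On TMM-scaled CPM they measured 66.5, 84.4 and 41.3 CPM and did not all lie between the pairs. Group means were 22.1 ± 2.67 (SD, n = 3), 23.2 ± 11.8 (SD, n = 4) and 26.2 ± 16.3 FPKM (SD, n = 4) for Normal, Nampt++ and Nampt+. Log2 fold changes against controls were -0.03 ± 0.42 and 0.15 ± 0.42 (SE), with edgeR adjusted p-values of 0.9999 and 1.0.

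The level of Traf6 ran against the summed platelet markers over the 11 samples, with an r of -0.74, and with the basophil and mast cell markers, with an r of 0.76. Without the 2 samples farthest from the median of the marker sum these became -0.45 and 0.65, and on TMM-scaled CPM they were -0.55 and 0.63. The genes most like it were Otud4 (r = 0.94), Ppp1r15b (0.93), Nsd3 (0.92), Skil (0.91) and AABR07058831 (0.91).

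Myd88 (ENSRNOG00000013634, chromosome 8 from 128022473 to 128026841) measured 238, 37.9, 73.8 and 60.5 FPKM at Nampt++ in rats 1 to 4. It measured 38.4, 73.0, 72.5 and 97.9 FPKM in the Nampt+ samples and 61.1, 71.4 and 38.0 FPKM in the controls. The Nampt++ library of rat 1, with the highest neutrophil marker sum, lay far above the other 10 samples, whose groups overlapped. The log2 fold change from Nampt++ to Nampt+ was -0.34 ± 0.57 (SE), and 0.43 without that library. Against controls it was 0.68 ± 0.64 under Nampt++, and -0.10 without that library, and 0.33 ± 0.49 under Nampt+, with edgeR adjusted p-values of 0.9999 and 1.0.

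Across the 11 samples Myd88 followed the summed neutrophil markers with an r of 0.91, and of 0.88 without the rat 1 library. On TMM-scaled CPM these were 0.96 and 0.97. The relation was not particular to neutrophil markers. With the summed monocyte markers Myd88 had an r of 0.66, and of 0.82 without that library (0.71 and 0.86 on TMM-scaled CPM). The 5 genes most like it were Acot7 (r = 0.99), Csf3r (0.99), Oscar (0.98), Cd33 (0.98) and Atg3 (0.98). Csf3r, the receptor for the neutrophil growth factor G-CSF, is itself one of the neutrophil markers and measured 1072 FPKM in the rat 1 library against 283.5 FPKM at most elsewhere. Tifa had an r of 0.41 with the neutrophil markers, and of -0.05 without that library. The values for Tifa on TMM-scaled CPM were 0.52 and 0.27. In rat 2, by contrast, the neutrophil markers summed to 3099 FPKM at Nampt++ and 15763 FPKM at Nampt+, and Myd88 was higher at Nampt+ by 0.93 on log2(FPKM + 1). In rat 3 the marker sum went from 13000 to 5423 FPKM, while Myd88 differed by -0.02. On TMM-scaled log2(CPM + 1) Myd88 differed by 1.536 in rat 2 and by -0.322 in rat 3.

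**Figure D3:**
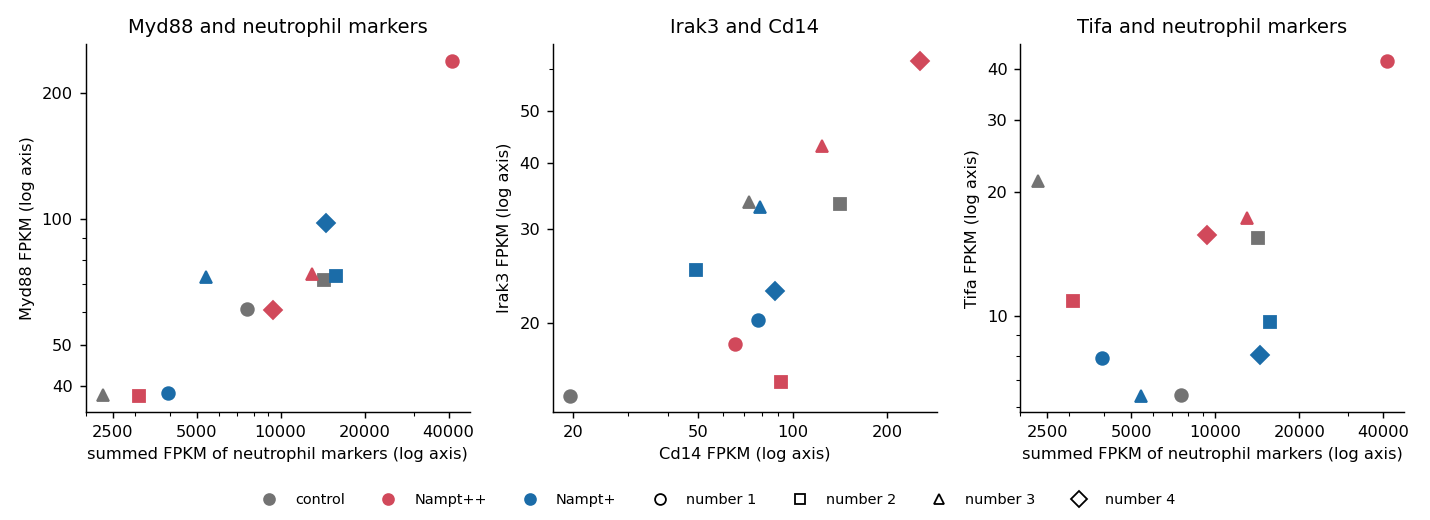
FPKM of Myd88 and of Tifa against the summed FPKM of 10 neutrophil markers, and of Irak3 against Cd14, on log axes, with 1 point per sample coloured by group and shaped by rat number. Myd88 runs along its marker sum (r = 0.91 on log2 values) and Irak3 along Cd14 (r = 0.75). Tifa has an r of 0.41 with the neutrophil markers and of -0.05 without the Nampt++ sample of rat 1. On TMM-scaled CPM, not drawn, these 2 values for Tifa are 0.52 and 0.27.

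Irak4 (ENSRNOG00000005965, chromosome 7 from 135803698 to 135832652), the kinase that first joins Myd88, was the lowest member in 11 of 11 samples. It measured 8.78 FPKM in the Nampt++ sample of rat 1, and 3.14, 3.33 and 3.45 FPKM in those of rats 2 to 4. Its Nampt+ samples ran from 2.07 to 6.49 FPKM and its controls from 2.45 to 4.82 FPKM. All 3 groups overlapped. Its log2 fold change from Nampt++ to Nampt+ was -0.14 ± 0.34 (SE), and 0.29 without the rat 1 library. Against controls it was 0.26 ± 0.38 and 0.10 ± 0.25, with edgeR adjusted p-values of 0.9999 and 1.0, and the first became -0.19 without that library.

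Irak1 (ENSRNOG00000060869, chromosome X from 156716604 to 156725977) differed little between groups. Its means were 31.7 ± 9.16 FPKM (SD, n = 3) in controls, 30.6 ± 3.81 (SD, n = 4) under Nampt++ and 30.2 ± 7.82 (SD, n = 4) under Nampt+. The samples ran from 18.8 FPKM in the Nampt+ sample of rat 2 to 42.0 FPKM in 1 control. Log2 fold changes were 0.03 ± 0.14 (SE) from Nampt++ to Nampt+, and -0.05 ± 0.17 and -0.03 ± 0.16 against controls, with edgeR adjusted p-values of 0.9999 and 1.0 for the last pair. Scaled by TMM, it ran only from 84.8 to 112 CPM over the 11 samples, a coefficient of variation of 7.84% against 20.5% in FPKM, and the lowest FPKM sample was then at 104.9 CPM. Among the 7 members this was the lowest coefficient of variation on that scale, the others running from 36.3% to 67.1%. In FPKM Irak1 followed the summed T cell markers with an r of 0.91, but on TMM-scaled CPM the r was 0.18. The 5 genes most like it in FPKM, Lrrc47 (r = 0.99), Hars, Csnk1g2, Ptpn22 and AABR07049994 (0.98 each), likewise had an r between 0.36 and 0.75 on TMM-scaled CPM, so these relations depended on the scaling of the libraries.

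Irak3 (ENSRNOG00000004226, chromosome 7 from 64923615 to 64982281) and Cd14 (ENSRNOG00000017819, chromosome 18 from 29560365 to 29562153) peaked in the same library. At Nampt++ in rats 1 to 4, Irak3 measured 18.3, 15.5, 43.1 and 62.2 FPKM and Cd14 measured 65.7, 92.0, 124 and 253 FPKM. In the Nampt+ samples Irak3 measured 20.3, 25.2, 33.0 and 23.0 FPKM, and Cd14 measured 77.3, 49.1, 78.8 and 87.7 FPKM. For both genes the 4 Nampt+ samples fell inside a narrower range than the 4 Nampt++ samples, with SDs of 5.46 against 22.1 FPKM for Irak3 and 16.7 against 83.1 FPKM for Cd14.

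The Nampt++ sample of rat 4 was the highest of 11 for both, and 4 of the 8 monocyte markers found were highest there as well. Their sum was not, with 9478 FPKM in that sample against 13647 FPKM in the Nampt+ sample of the same rat, and its r was 0.35 with Irak3 and 0.47 with Cd14. Over the 11 samples the r between Irak3 and Cd14 was 0.75 in FPKM and on TMM-scaled CPM, the highest of the 21 pairs of members, and 0.53 without the 2 samples farthest from the median of Irak3. Controls ranged from 14.6 to 33.8 FPKM for Irak3 and from 19.6 to 141 FPKM for Cd14, with the same control lowest for both.

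At Nampt+, Cd14 was lower in 3 of 4 rats, by -0.89, -0.64 and -1.52 in rats 2 to 4 on log2(FPKM + 1), and higher by 0.23 in rat 1. On TMM-scaled log2(CPM + 1) Cd14 differed by 0.269, -0.305, -0.942 and -1.50 in rats 1 to 4. Its log2 fold change was -0.76 ± 0.34 (SE), with a ratio of means of 0.548. It was -0.99 without the Nampt++ library of rat 1 and -0.40 without that of rat 4. The fitted value for Irak3 was -0.26 ± 0.44 (SE), and 0.05 without the Nampt++ library of rat 4.

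Against controls, Cd14 had log2 fold changes of 0.57 ± 0.72 and -0.21 ± 0.61 (SE) under Nampt++ and Nampt+, and Irak3 had 0.24 ± 0.52 and -0.04 ± 0.42. The edgeR adjusted p-values were 0.9999 under Nampt++ and 1.0 under Nampt+ for both genes. Single controls moved the Cd14 values. Without the second control, at 141 FPKM, they became 1.73, then called, and 0.95, and without the first, at 19.6 FPKM, they became 0.10 and -0.68. The genes most like Irak3 were Tp53inp2 (r = 0.97), Map4k4 (0.93), Nfkb1 (0.92), Patl1 (0.92) and Tatdn2 (0.91). Nfkb1, which encodes an NF-kappa B subunit, reached 145 FPKM in the Nampt++ sample of rat 4 where Irak3 peaked. Those most like Cd14 were Rap2b (0.92), Adora2a (0.91), Map1lc3a (0.90), Cab39 (0.89) and Rassf4 (0.89). Adora2a, an adenosine receptor, kept an r of 0.91 without the 2 samples farthest from the median of Cd14.

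**Figure D4:**
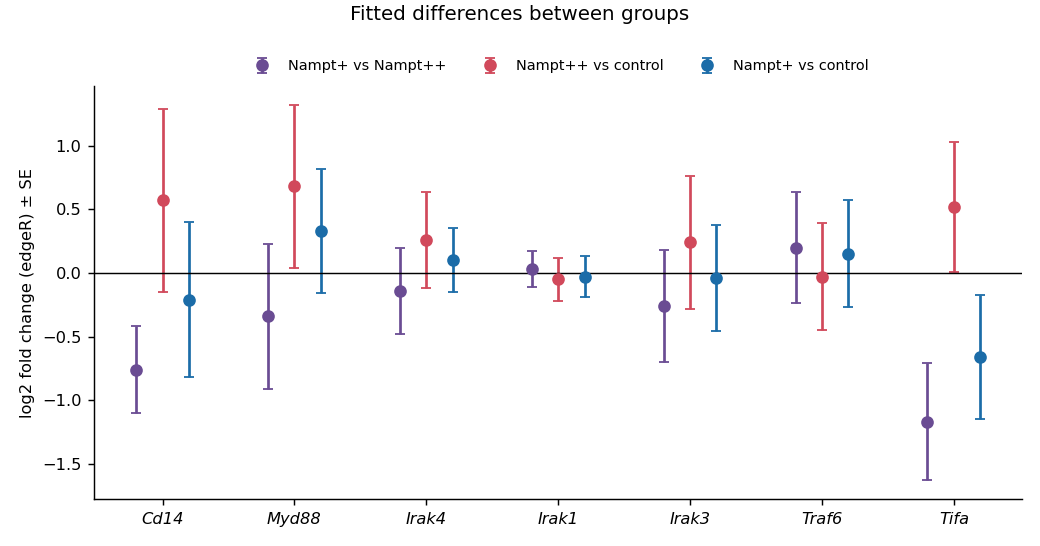
Fitted log2 fold change of the 7 members in the 3 comparisons, with bars of 1 SE. Tifa stands lowest in the change to Nampt+ at -1.17, and against controls none of the 7 members was called, with edgeR adjusted p-values of 0.9999 and 1.0.

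Taking the 7 members as a group, 0 of 7 were called under Nampt++ against controls, where 0.686% of 11219 genes were called, and 0 of 7 under Nampt+ against controls, where 0.497% of 11269 were called. 0 of 7 had an unadjusted p under 0.05 by edgeR, DESeq2 or limma in either comparison. In neither comparison did a member have groups without overlap, as 1.1% and 0.444% of all genes did. The median log2 fold change of the members was 0.26 under Nampt++ and -0.03 under Nampt+ against controls, and -0.26 from Nampt++ to Nampt+, beside medians between -0.003 and 0.002 over all genes tested in the 3 comparisons.

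The rest of the pathway was read from 83 genes listed by role, of which 80 were found. Between Nampt++ and Nampt+, 69 were tested and 1 was called, where 0.642% of all genes were. This was Il1r1, the signalling receptor for interleukin-1, with a log2 fold change of -2.28 ± 0.97 (SE) and an edgeR adjusted p of 0.9996. Il1r1 measured 9.59, 0.114, 5.00 and 5.38 FPKM at Nampt++ in rats 1 to 4, and 0.284, 0.719, 0.870 and 1.84 FPKM at Nampt+. It was thus lower in rats 1, 3 and 4 and under 1 FPKM in both samples of rat 2, and 1 control also measured 9.79 FPKM beside 0.348 and 0.329 FPKM in the other 2. The call was lost with the rat as a block, with all 3 groups in 1 fit and with limma at a pseudocount of 0.1. Dropping rat 1, 3 or 4 from Nampt++, or rat 1, 2 or 3 from Nampt+, also lost it, and Il1r1 passed the filter of 1 FPKM through its Nampt++ samples.

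Of the 69, 52 had a negative and 17 a positive log2 fold change, with a median of -0.22, where 50.04% of all genes were negative. The lowest median by role, -0.41, was that of the response genes, the NF-kappa B targets and cytokines, with 16 of 17 negative. The 6 genes that handle lipopolysaccharide or chaperone receptors were negative in 6 of 6, with a median of -0.35, and 9 of 14 receptors were negative, with a median of -0.38. The kinases downstream were split, 6 positive and 5 negative, with a median of 0.01. Without the Nampt++ library of rat 1, 45 of 68 were negative with a median of -0.13, and 15 of 17 response genes with a median of -0.39. The receptors turned, with 5 of 14 negative and a median of 0.06, and so did the brakes, from a median of -0.16 to 0.04. The median of the response genes was -0.17 when rat 1 was dropped from Nampt+, and -0.78 when rat 2 was.

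Among genes of this list with a mean of at least 10 FPKM, the lowest fitted values from Nampt++ to Nampt+ were those of Tlr7, a sensor of single-stranded RNA, at -1.13 ± 0.53 (SE) and of the cytokine Tnf at -0.94 ± 0.46. The highest were those of the chemokine Cxcl2 at 0.41 ± 0.57 and of the kinase Ikbke at 0.22 ± 0.22. The edgeR adjusted p was 0.9996 for each. Tlr7 went from 13.9, 27.5 and 45.3 FPKM to 4.77, 13.9 and 14.8 FPKM in rats 2 to 4 and from 5.36 to 7.90 FPKM in rat 1, the same pattern of rats as Cd14.

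Under Nampt++ against controls, 68 genes of the list were tested and 0 were called by edgeR, with 0 at an unadjusted p under 0.05 and 0.686% of all genes called. DESeq2 called 1, Tnf, and limma called 2, Lbp and Tnf, on log2(FPKM + 1) and 0 on log2(FPKM + 0.1). 54 were positive and 14 negative, with a median of 0.24, where 50.4% of all genes were positive. The receptors had 12 of 13 positive and a median of 0.50, and the response genes 12 of 17 and a median of 0.28. Without the Nampt++ library of rat 1 the receptors had 9 of 13 positive and a median of 0.15. The highest were Lbp, which carries lipopolysaccharide to Cd14, at 1.23 ± 0.72 (SE) and Tnf at 1.20 ± 0.56, and the lowest Ptgs2 (cyclooxygenase-2) at -1.04 ± 0.74 and Cxcl2 at -1.03 ± 0.79, with an edgeR adjusted p of 0.9999 for each. Only Tnf and Unc93b1, the chaperone that carries nucleic-acid-sensing receptors to endosomes, had groups without overlap, 2 of 68 where 1.1% of all genes had none. Unc93b1 measured 48.7, 49.9 and 56.6 FPKM in controls and 118.9, 58.3, 57.7 and 68.3 FPKM under Nampt++. Tnf measured 23.7, 23.7 and 16.1 FPKM in controls and 118, 29.5, 24.4 and 44.6 FPKM under Nampt++, so that its lowest Nampt++ sample was barely above the controls.

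The second control weighed on this list more than any other library. Without it, edgeR called 15 genes of the list under Nampt++, where 462 of all 11303 genes were called, and the median was 0.64 for the list and 1.23 for the response genes. Without the third control the median of the list was 0.09 and that of the response genes -0.12. The median of the list was above 0 without any 1 of the 3 controls, and that of the response genes was not.

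Under Nampt+ against controls, 68 were tested and 0 were called by edgeR or limma, with 0 at an unadjusted p under 0.05, and DESeq2 called 1, Il1rl1. Il1rl1 measured 0.633, 0.431, 1.99 and 3.74 FPKM at Nampt+ in rats 1 to 4, against a mean of 0.636 FPKM in controls. It passed the filter of 1 FPKM through its Nampt+ samples, so nothing further is read from this call. Of the 68, 36 were positive and 32 negative, with a median of 0.02. The lowest were Ptgs2 at -1.21 ± 0.74 (SE) and the chemokine Cxcl1 at -0.84 ± 0.58, and the highest Lbp at 0.83 ± 0.67 and the decoy receptor Il1r2 at 0.71 ± 0.91, with an edgeR adjusted p of 1.0 for each. Without the second control the median of the list was 0.41 and without the third it was -0.14.

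**Figure D5:**
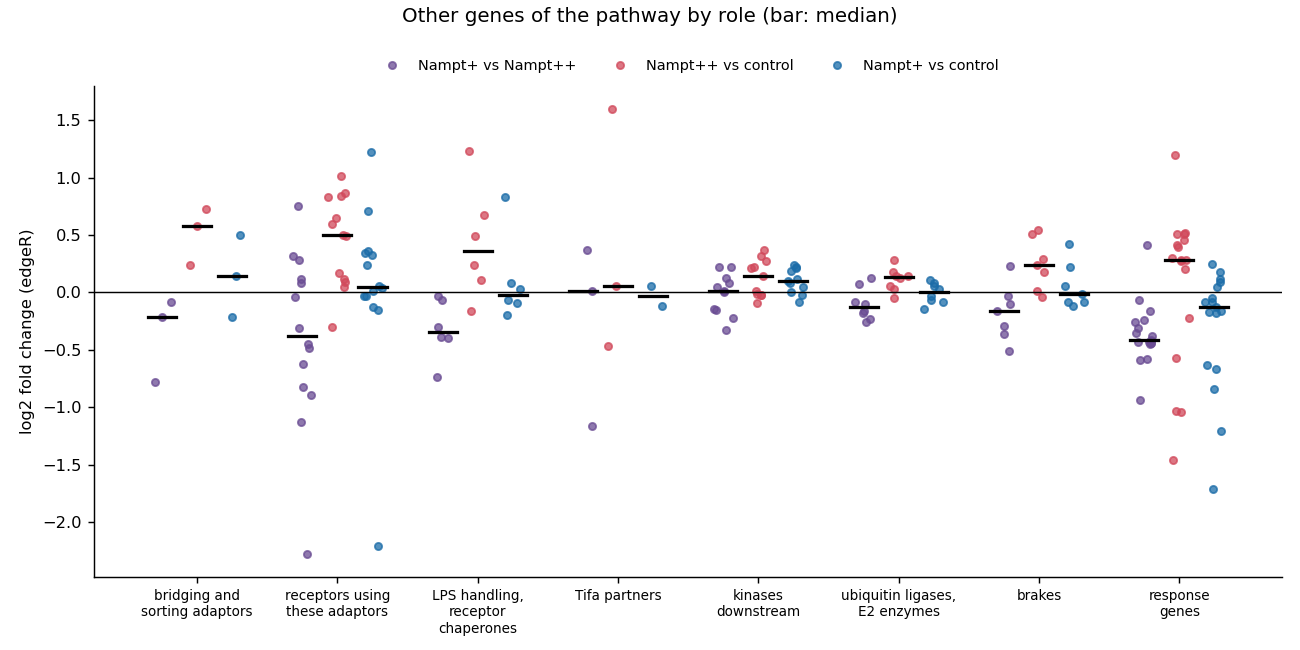
Fitted log2 fold change of the tested genes of each role in the 3 comparisons, 1 point per gene and a black bar at the median. From Nampt++ to Nampt+, 16 of 17 response genes lie below 0, and the kinases downstream lie on both sides with a median of 0.01.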

How the data were processed

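Per the submitters' processing notes, reads were trimmed with cutadapt 1.9, aligned with HISAT2 2.0.4 and assembled with StringTie 1.3.4. The genome build was not given in the sources used here, so member positions are those of the deposited table. The authors deposited, for each gene and sample, the raw count and the FPKM. The deposited counts were compared with edgeR 4.0.16 (quasi-likelihood test, TMM, R 4.3.3) over genes with a mean of at least 1 FPKM, a pair of groups at a time, with Benjamini-Hochberg adjustment over all genes tested. A gene was called, after the authors' thresholds, when its group mean FPKM differed by a ratio over 2 or below 0.5 with unadjusted p below 0.05. edgeR called 72, 77 and 56 genes in Nampt+ against Nampt++, Nampt++ against Normal and Nampt+ against Normal. An adjusted p under 0.05 was reached by 0 genes with edgeR or limma and by 5, 5 and 4 with DESeq2. The edgeR script was tested on simulated data.

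FPKM was used as deposited for levels and, as log2(FPKM + 1), for differences within rats and for correlations. Fold changes on that scale understate those of low genes. Alternatives were DESeq2 1.42.0, limma 3.58.1 on log2(FPKM + 1) or log2(FPKM + 0.1), other scalings and filters, all 3 groups in 1 fit, the rat as a block, and leaving out each sample. TMM-scaled log2(CPM + 1) for within-rat differences and correlations was added after seeing the data. Samples of the same number come from the same animal, so the block is a pairing by rat, though deviations of paired samples around their group means correlated only at -0.27, -0.24, 0.23 and 0.09. Replicates correlated at r between 0.904 and 0.972 within groups, and the p-values judge group differences against the spread between these samples. In Nampt+ against Nampt++ the main edgeR fit used no block, so its p-values take no account of the pairing by rat.

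The members and lists were chosen with earlier results of these data known, and the promoter motifs after seeing the data. Named pathway genes were those called, those without overlap (added after their values were seen), and the 2 highest and 2 lowest by log2 fold change in each comparison with a mean of at least 10 FPKM. The 5 genes most like Tifa followed a stated rule, which was extended to the other members afterwards. Near-identical gene copies, for Tnf among others, could share reads.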

Additional observations from a re-analysis of the deposited data

Results flagged for a closer look

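2 member values stood far from the other samples of their group by Dixon's criterion for 4 samples, out of 14 groups examined, where chance gives about 1 in 20. The criterion was applied on log2(FPKM + 1), not on FPKM. Irak1 measured 18.8 FPKM in the Nampt+ sample of rat 2, below 32.7 to 36.6 FPKM in the other 3. It just reached the criterion on the log2 scale and did not reach it on FPKM. With counts scaled by TMM, tried after seeing the data, it was not low there, at 104.9 CPM against 90.7 to 99.6 CPM in the other 3. Irak4 measured 8.78 FPKM in the Nampt++ sample of rat 1, above 3.14 to 3.45 FPKM in the other 3. The gap was 0.916 of the range on the log2 scale, and Irak4 was also highest there after TMM scaling, at 33.2 CPM. That is the sample whose neutrophil markers summed to 41232 FPKM. The part of these markers in the value was not tested.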

How the results depend on the processing

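Leaving out 1 sample at a time moved the member calls most. From Nampt++ to Nampt+, the log2 fold change of Tifa ran from -1.64 to -0.67 and its call was lost when rat 1 was dropped from Nampt++ (-0.67), or rat 1 (-1.09), 3 (-1.01) or 4 (-1.08) from Nampt+, so members called ran from 0 to 1. With the rat as a block, Tifa stood at -1.17 without a call, 0 members and 0 pathway genes were called, and the block changed no other member call. On TMM-scaled log2(CPM + 1), chosen after seeing the data, 0 members rather than 1 were lower in all 4 rats, the rat 2 value of Tifa being 0.42. Members called against controls ran from 0 to 1 under Nampt++ (Cd14, without the second control) and stayed at 0 under Nampt+.

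29 of 326 member fold changes under alternatives changed sign and 290 kept sign and side of the threshold. In the change to Nampt+, limma gave -0.05 and -0.05 for Irak1 with the larger and the smaller pseudocount, and against controls 0.28 and 0.29 for Cd14 under Nampt+. Leaving out 1 sample, member values ran from -0.08 to 0.55 for Traf6, -0.04 to 0.11 for Irak1, -0.57 to 0.05 for Irak3, -0.35 to 0.29 for Irak4 and -0.69 to 0.43 for Myd88 from Nampt++ to Nampt+. Under Nampt++ against controls they ran from -0.41 to 0.22 for Traf6, -0.13 to 0.01 for Irak1, -0.09 to 0.68 for Irak3, -0.19 to 0.47 for Irak4 and -0.10 to 1.1 for Myd88. Under Nampt+ against controls they ran from -0.13 to 0.40 for Traf6, -0.09 to 0.02 for Irak1, -0.35 to 0.41 for Irak3, -0.09 to 0.31 for Irak4, -0.03 to 0.75 for Myd88 and -0.68 to 0.95 for Cd14.

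All genes called ran from 58 to 165, 53 to 462 and 49 to 136 in Nampt+ against Nampt++, Nampt++ against Normal and Nampt+ against Normal when 1 sample was left out. They were 295, 306 and 261 with no FPKM filter and 19, 25 and 14 at a mean of at least 10 FPKM. In Nampt++ against Normal, DESeq2 called 121 and limma 145 or 140. Pathway genes called ran from 0 to 4, 0 to 15 and 0 to 2 when 1 sample was left out. From Nampt++ to Nampt+ they were 2 with DESeq2, 3 with no filter, and 0 at a mean of at least 10 FPKM, with limma at the smaller pseudocount or with all 3 groups in 1 fit. Against controls they were 1 with DESeq2 for both statuses, and under Nampt++ also 1 with no filter, 2 with limma at the larger pseudocount (0 at the smaller) and 1 with all 3 groups in 1 fit. The causes were not tested. With 3 or 4 rats a group and 1 library able to move a mean as it did for Tifa and Myd88, smaller differences could not be detected here.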
